A study of Rattus norvegicus with 38 samples.

Results

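The 9 genes described here encode liver enzymes that break down amino acids, and they were taken by symbol from the count and TPM tables: Sds, Sdsl, Gldc, Hal, Aass, Tdo2, Tat, Hpd and Hgd. All 9 were found among the 31038 genes of the count table, and all 9 passed the filter on low counts that left 14786 genes for testing. The liver removes amino acids that are not needed for protein by splitting off their nitrogen, which goes to urea, and by burning the carbon skeletons or turning them into glucose. Several of these genes are classical targets of fasting hormones in rat liver: glucagon and glucocorticoids raise Tat and Sds, and glucocorticoids raise Tdo2. The enzymes belong to separate routes. Sds (serine dehydratase), its relative Sdsl (serine dehydratase like) and Gldc (the decarboxylase of the glycine cleavage system) act on serine, threonine and glycine. Tat (tyrosine aminotransferase), Hpd (4-hydroxyphenylpyruvate dioxygenase) and Hgd (homogentisate dioxygenase) are the successive steps that open tyrosine breakdown. Hal (histidine ammonia lyase) begins histidine breakdown, Tdo2 (tryptophan dioxygenase) begins the kynurenine route of tryptophan, and Aass (aminoadipate-semialdehyde synthase) begins lysine breakdown.

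The RNA came from livers of 38 Sprague-Dawley rats, an outbred laboratory stock, collected on day 28. Lipopolysaccharide (LPS), a bacterial cell wall molecule that provokes an acute inflammatory response, was injected into the peritoneum of 4 of the 8 groups, and the labels at hand do not state its dose or timing. Extracts known only as EF, PF and RD were given by the intragastric route, with EF and PF each dosed at 2.5 g/kg and RD at 200 mg/kg. The groups were LPS_EF_RD (LPS, EF and RD, n = 5), LPS_EF_PF (LPS, EF and PF, n = 4), LPS_EF (LPS and EF, n = 5), LPS (n = 5), EF_RD (n = 4), EF_PF (n = 5), EF (n = 5) and control (neither LPS nor extract, n = 5). PF and RD were given only on top of EF, so neither was tested alone. Neither age nor sex is stated in the labels. The labels name hepatocytes, but they describe whole liver with no step that isolates cells, so fewer hepatocytes in a sample and less RNA per hepatocyte cannot be told apart. Levels are given as CPM, a gene's read pairs relative to the library's total after TMM scaling, with libraries named by group and replicate number. The series' text calls the samples of a group biological replicates, and p-values measure the spread between them.

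Totals ran from 19716622 to 35835012 counted read pairs per library. Hepatocyte markers such as albumin were abundant in every library, with a sum over 7 genes of 142600 to 169000 CPM in LPS livers and 168400 to 209600 CPM in control livers. A group of 4 libraries stood apart by the acute-phase genes A2m (alpha-2-macroglobulin) and Lbp (lipopolysaccharide binding protein). In LPS_EF 7 and LPS_EF_RD 6, A2m was at 5.84 and 6.90 CPM and Lbp at 252.0 and 255.6 CPM, against at least 84.2 CPM and 2136 CPM in the other 17 libraries labelled LPS. In EF 1 and EF_RD 1, A2m was at 17.2 and 19.0 CPM, against at most 3.51 CPM in the other 17 libraries without LPS. Genes of skeletal muscle reached 3365 CPM in EF_RD 1 and 301.3 CPM in LPS 3, and genes of exocrine pancreas reached 1038 CPM in LPS 3 and 1665 CPM in control 5. Where leaving out 1 of these libraries changed a call on an enzyme, the value without it is given.

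Per transcript length, Hpd had the highest level of the 9 enzymes in control livers and Gldc the lowest. Hpd averaged 2179 ± 265 TPM there, followed by Tat at 1648 ± 305 TPM and Tdo2 at 1003 ± 201 TPM (SD, n = 5). Sds stood at 613 ± 388 TPM, Hgd at 356 ± 11.4 TPM, Hal at 255 ± 24.8 TPM and Aass at 126 ± 41.3 TPM. Sdsl and Gldc were lowest, at 23.6 ± 2.52 and 14.7 ± 3.0 TPM. The control libraries of the neighbours Hgd (342.6 to 371.1 TPM) and Hal (231.2 to 286.0 TPM) did not overlap, nor did those of Sdsl and Gldc. The ranges of Hpd (1883 to 2456 TPM) and Tat (1333 to 2005 TPM) overlapped, and that of Sds (225.5 to 1082 TPM) took in the levels of Hgd. In LPS livers Sds averaged 53.5 ± 48.3 TPM and stood below Hgd, Aass and Hal in this order, while Hpd remained highest at 1680 ± 204 TPM.

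After LPS without extract, 6 of the 9 enzymes fell: Sds, Sdsl, Hal, Tat, Hpd and Hgd. None rose, and Gldc, Aass and Tdo2 did not pass the test. The test was edgeR's quasi-likelihood test with Benjamini-Hochberg adjustment over all 14786 genes, at an adjusted p under 0.05, and it called 36.8% of all genes, 18.1% in the downward direction. The same 6 enzymes had no overlap between the 5 LPS and the 5 control libraries, a pattern that held for 25.0% of all genes tested. The median log2 difference was -0.80 over the 9 enzymes and -0.00 over all genes tested. When libraries were scaled by their total counts alone, the median over all genes was 0.13, and 6 enzymes were again called lower.

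**Figure D1:**
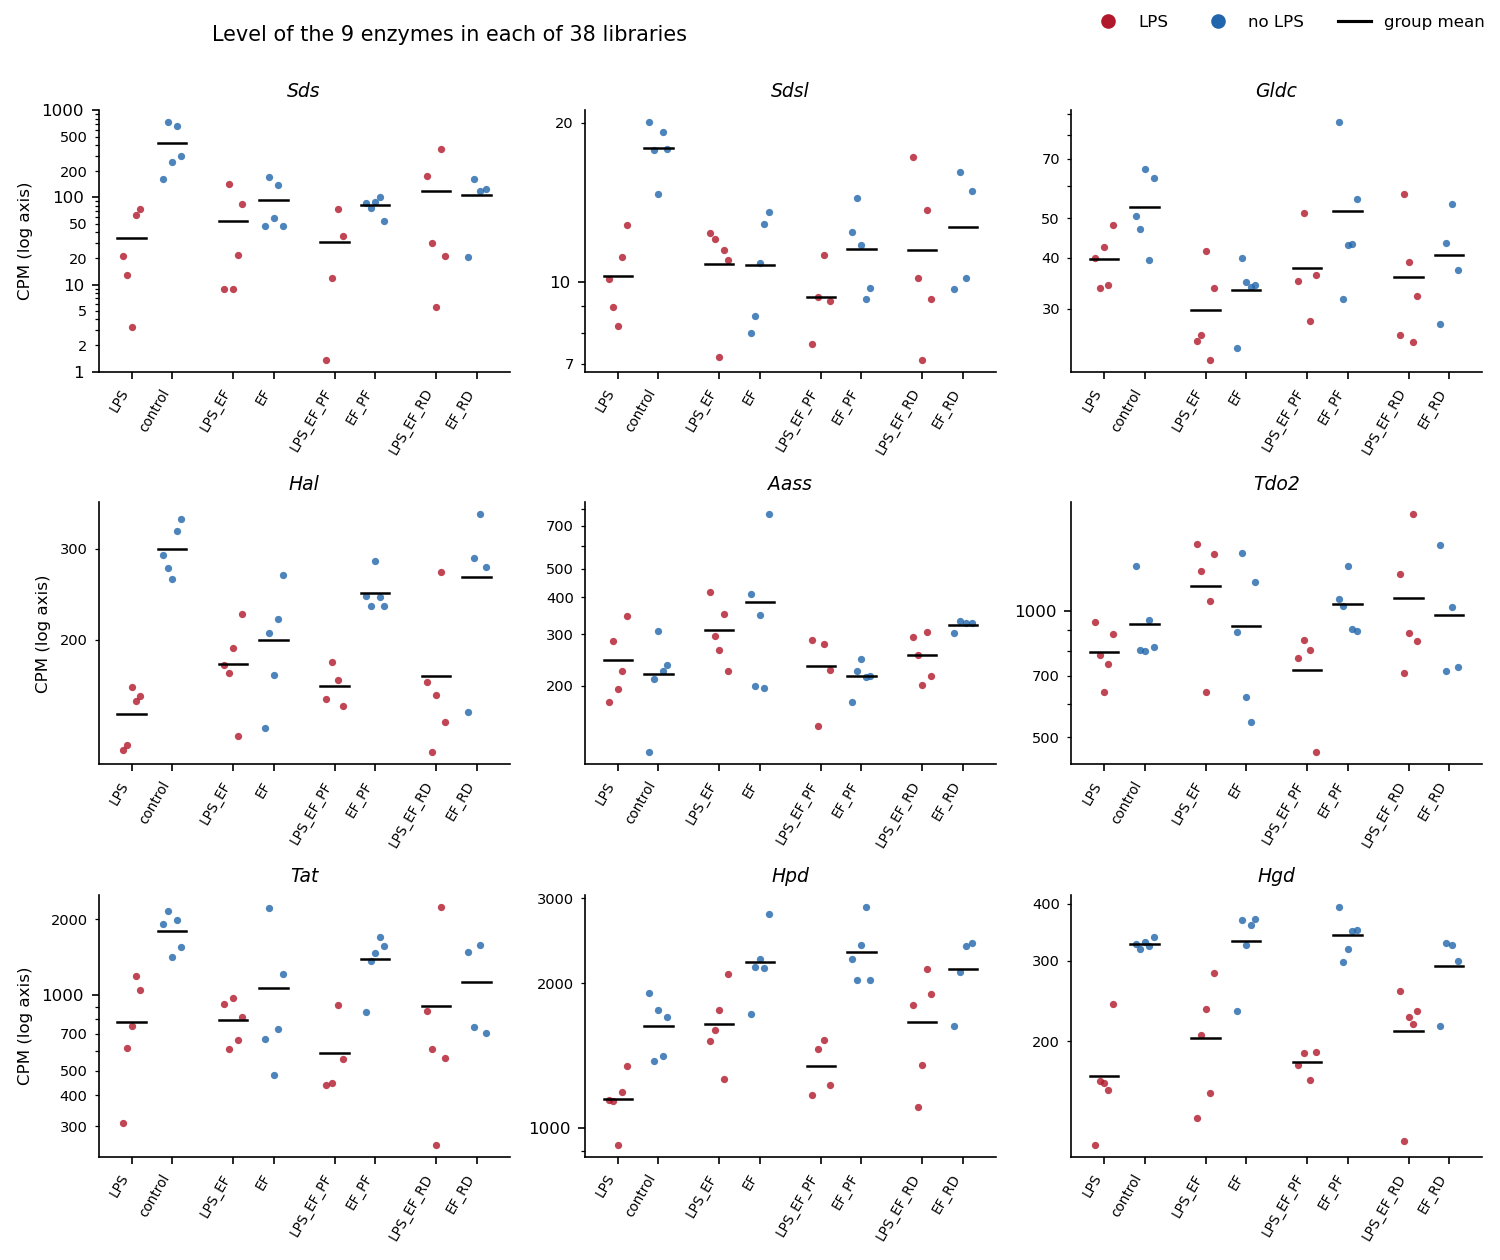
Level of each of the 9 enzymes in every library, in CPM on a log axis, with LPS groups in red beside their counterparts without LPS in blue and a black line at the group mean. Sds spans 1.37 to 741 CPM, whereas the control values of Hgd lie together between 317.8 and 338.7 CPM.

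The deepest fall was that of Sds, the enzyme that deaminates serine and threonine to yield pyruvate and 2-oxobutyrate, substrates for glucose synthesis. It lies in rn6 at chr12:41620429-41627741 on the minus strand, and Sdsl lies next to it at chr12:41636994-41647205 on the plus strand, with 9252 bases between them. Sds measured 21.1, 13.0, 3.26, 62.1 and 73.2 CPM in the LPS livers, against 163.9, 741, 252.5, 661 and 302 CPM in the control livers. Every LPS liver lay below every control liver, and within each group the values differed by more than 4-fold. The fall was 12.3-fold, a log2 difference of -3.62 ± 0.97 (SE; adjusted p = 0.00399). LPS 3, which also carried pancreas and muscle transcripts, had the lowest value, and without it the log2 difference was -3.33.

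Sdsl encodes a related protein with serine and threonine dehydratase activity, and its level was far lower. It measured 10.1, 8.97, 8.25, 11.1 and 12.8 CPM in LPS livers, against 20.1, 17.8, 14.7, 19.2 and 17.9 CPM in control livers. The ranges did not meet, and the spread within groups was narrow. The fall was 1.75-fold (log2 -0.80 ± 0.19, adjusted p = 0.00162). Gldc, whose product starts the cleavage of glycine to carbon dioxide and ammonia in mitochondria, was at 39.9, 33.7, 42.5, 34.2 and 48.0 CPM in LPS livers and at 50.6, 47.0, 66.0, 39.6 and 62.9 CPM in control livers. These ranges overlapped and the difference was not called (log2 -0.42 ± 0.24, adjusted p = 0.158). An interval of 2 SE either side of it runs from -0.89 to 0.05, so a fall of the size seen for Sdsl lies inside it.

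The opening steps of tyrosine breakdown fell together. Tat, which moves the amino group from tyrosine to 2-oxoglutarate, measured 310.6, 613, 756, 1189 and 1050 CPM in LPS livers, against 1921, 2150, 1412, 1984 and 1552 CPM in control livers. The highest LPS liver stayed below the lowest control liver. The fall was 2.30-fold (log2 -1.20 ± 0.41, adjusted p = 0.0219), and the call was lost without LPS 1 (adjusted p = 0.0642) or without LPS 2 (adjusted p = 0.0514).

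Hpd, which makes homogentisate, was at 1143, 1142, 923.5, 1188 and 1349 CPM in LPS livers and at 1906, 1377, 1763, 1416 and 1702 CPM in control livers. The gap between the ranges was small, with 1349 CPM in the highest LPS liver and 1377 CPM in the lowest control liver. The fall was 1.42-fold (log2 -0.51 ± 0.16, adjusted p = 0.0118). The call was lost in limma on log2(TPM + 1) without a filter on low values (log2 -0.38, adjusted p = 0.0636) and with the replicate number as a block (log2 -0.38, adjusted p = 0.0625). Hpd shares 195 exon bases with LOC102547495 on the other strand, which had a median of 2.58 CPM, and the file header gives no strand option for the counting, so reads in the shared bases cannot be told apart. Hgd, which opens the ring of homogentisate, measured 118.5, 163.7, 161.7, 156.1 and 240.9 CPM in LPS livers, against 326.8, 317.8, 329.5, 322.7 and 338.7 CPM in control livers. The control livers were nearly level, and LPS 5 stood above the other LPS livers. Hgd fell 1.95-fold (log2 -0.96 ± 0.18, adjusted p = 0.000145).

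Windows of 250 bases before a transcript start of these 3 genes are shown because they are successive steps of one route that fell in the same livers. The sequences are from RefSeq (build GRCr8), on the gene's own strand. The windows of Tat and Hpd end at the gene's annotated start, whereas the last 9 bases of the Hgd window lie within the gene as annotated. Capitals mark the letters TTGCNNAA (a motif of C/EBP factors) and CCAAT on either strand. The windows are chr19:54856354-54856603 (plus strand) for Tat, chr12:39041996-39042245 (plus strand) for Hpd and chr11:76643768-76644017 (minus strand) for Hgd.
Tat: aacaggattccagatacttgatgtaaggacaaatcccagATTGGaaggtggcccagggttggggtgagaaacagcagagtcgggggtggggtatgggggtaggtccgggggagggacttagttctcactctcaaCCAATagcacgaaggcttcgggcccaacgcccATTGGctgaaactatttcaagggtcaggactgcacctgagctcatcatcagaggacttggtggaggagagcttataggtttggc
Hpd: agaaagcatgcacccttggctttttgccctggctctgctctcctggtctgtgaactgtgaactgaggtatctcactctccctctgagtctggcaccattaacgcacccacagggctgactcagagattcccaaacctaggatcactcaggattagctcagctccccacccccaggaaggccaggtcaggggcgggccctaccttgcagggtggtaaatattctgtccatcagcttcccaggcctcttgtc
Hgd: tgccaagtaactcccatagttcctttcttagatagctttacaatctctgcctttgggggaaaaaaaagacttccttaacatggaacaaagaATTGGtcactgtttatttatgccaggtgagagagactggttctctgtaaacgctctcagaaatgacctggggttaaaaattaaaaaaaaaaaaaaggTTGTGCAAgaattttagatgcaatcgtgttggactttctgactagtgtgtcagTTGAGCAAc
TTGCNNAA was found at 2 places in the Hgd window, beginning 62 and 9 bases from its downstream end, the second of them within the annotated gene, and in neither of the other windows shown. It occurs in 9.22% of all 33469 windows of this length, and in 2 of the 6 windows at hand for the 9 enzymes, those of Hgd and Aass. CCAAT was found 3 times in the Tat window and at a single place in that of Hgd, and it occurs in 34.0% of all windows. It was in 5 of the 6 windows at hand, those of Gldc, Aass, Tdo2, Tat and Hgd. TGTTCT, a part of the glucocorticoid receptor motif, was in none of the 6 and occurs in 17.5% of all windows. TGACG, a part of the cyclic AMP motif, was in the Aass window and occurs in 18.2%. The full forms of these motifs, and bases further upstream, were not searched. Windows for Gldc and Tdo2 were also searched, and no window was at hand for Sds, Sdsl and Hal.

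Hal releases ammonia from histidine to give urocanate. It measured 122.2, 125.0, 162.0, 151.9 and 155.7 CPM in LPS livers, against 291.9, 275.7, 262.3, 324.6 and 343.1 CPM in control livers. The highest LPS liver was far below the lowest control liver. The fall was 2.09-fold (log2 -1.06 ± 0.19, adjusted p = 8.49e-05). Hal lies at chr7:34326087-34356413 in rn6, and 6221 bases beyond its end lies Amdhd1, which encodes a later step of the same route and is described with the wider lists.

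Tdo2 and Aass did not pass the test. Tdo2, which opens the indole ring of tryptophan, was at 940.8, 786, 642, 746 and 880.2 CPM in LPS livers and at 1279, 808.5, 801.5, 952 and 821 CPM in control livers. The ranges overlapped between 801.5 and 940.8 CPM (log2 -0.22 ± 0.25, adjusted p = 0.511). The 2 SE interval runs from -0.72 to 0.27. Aass, which joins lysine to 2-oxoglutarate and splits the product, was at 176, 284, 195, 224 and 345 CPM in LPS livers and at 118.5, 211, 307, 225 and 235 CPM in control livers. These ranges overlapped as well (log2 0.16 ± 0.27, adjusted p = 0.675, 2 SE interval -0.37 to 0.69).

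LPS was also compared with no LPS in rats that had received an extract. In each of these arms fewer enzymes passed the test than in rats without extract, and whether the LPS difference itself changed under an extract was tested separately. In LPS_EF livers against EF livers, 2 of the 9 fell, Hpd and Hgd, where 29.1% of all genes were called and 14.5% were called lower. In LPS_EF_PF livers against EF_PF livers, 4 fell, Hal, Tat, Hpd and Hgd, where 36.5% of all genes were called and 17.3% were called lower. In LPS_EF_RD livers against EF_RD livers, Hal alone fell, where 23.5% of all genes were called and 10.7% were called lower. No enzyme rose in any of the 3 arms. The groups did not overlap for 0, 4 and 0 of the enzymes in the EF, PF and RD arms, against 9.98%, 37.1% and 14.3% of all genes tested.

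Like Gldc, Hal, Tat and Hpd, Hgd held its direction in every arm. It measured 135.9, 206.6, 235.7, 154.2 and 281.9 CPM in LPS_EF livers, against 232.4, 367.7, 325.4, 358.6 and 370.8 CPM in EF livers. EF 1, at 232.4 CPM, lay below LPS_EF 5 and LPS_EF 7, and every other EF liver lay above all LPS_EF livers (log2 -0.71 ± 0.18, adjusted p = 0.0038). With the 4 libraries that stood apart left out, Hgd averaged 183 ± 46.1 CPM in 4 LPS_EF livers and 356 ± 20.8 CPM in 4 EF livers (SD). In the PF arm Hgd measured 177.6, 188.2, 164.4 and 189.2 CPM in LPS_EF_PF livers, against 393.9, 298.9, 317.7, 348.0 and 350.8 CPM in EF_PF livers. There the groups did not overlap (log2 -0.93 ± 0.20, adjusted p = 0.000401). In the RD arm it measured 257.4, 120.7, 226.1, 218.0 and 233.0 CPM in LPS_EF_RD livers, against 215.6, 327.6, 325.7 and 300.5 CPM in EF_RD livers. EF_RD 1 was the only EF_RD liver inside the LPS_EF_RD range, and the difference was not called (log2 -0.47 ± 0.19, adjusted p = 0.0697). Without EF_RD 1 it was called (log2 -0.59, adjusted p = 0.0288), and likewise without LPS_EF_RD 1 (adjusted p = 0.0437).

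Hpd was called in the EF and PF arms. In the EF arm Hpd was at 1520, 1602, 1756, 1267 and 2088 CPM in LPS_EF livers and at 1729, 2165, 2249, 2147 and 2782 CPM in EF livers. The ranges overlapped, and the fall was small (log2 -0.43 ± 0.16, adjusted p = 0.0387). The call was lost in 8 of the 10 fits that left out 1 of these libraries, with adjusted p up to 0.145, all but those without EF 1 or without LPS_EF 7. In the PF arm Hpd was at 1175, 1462, 1526 and 1231 CPM in LPS_EF_PF livers, against 2243, 2030, 2405, 2879 and 2032 CPM in EF_PF livers, with no overlap (log2 -0.78 ± 0.17, adjusted p = 0.000549). In the RD arm the difference was not called (log2 -0.36 ± 0.17, adjusted p = 0.108), and it was called without LPS_EF_RD 6 (log2 -0.47, adjusted p = 0.0341) or without EF_RD 1 (log2 -0.47, adjusted p = 0.0441).

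Hal was at 153.1, 180.6, 167.1 and 148.7 CPM in LPS_EF_PF livers and at 243.0, 232.1, 283.8, 242.0 and 232.3 CPM in EF_PF livers. The groups did not overlap (log2 -0.60 ± 0.20, adjusted p = 0.0199), and the call was lost without LPS_EF_PF 6 (adjusted p = 0.0507) and under scaling by total counts (adjusted p = 0.0664). In the RD arm Hal was at 165.4, 120.7, 155.8, 270.8 and 138.4 CPM in LPS_EF_RD livers and at 144.5, 288.6, 350.3 and 276.3 CPM in EF_RD livers. EF_RD 1 lay inside the LPS_EF_RD range, and the other 3 EF_RD livers lay above all LPS_EF_RD livers, with LPS_EF_RD 6 just under them. The fall of log2 -0.64 ± 0.20 (adjusted p = 0.0198) was not called when EF_RD 2, EF_RD 3 or LPS_EF_RD 2 was left out, with adjusted p up to 0.115. With the 4 libraries that stood apart left out, Hal averaged 145 ± 19.7 CPM in 4 LPS_EF_RD livers and 305 ± 39.7 CPM in 3 EF_RD livers (SD). In the EF arm Hal differed by log2 -0.15 ± 0.19 (adjusted p = 0.577), and by -0.35 with the same 4 libraries left out, which was called (adjusted p = 0.0342).

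Tat fell in the PF arm, with 436.6, 444.7, 914.8 and 556.8 CPM in LPS_EF_PF livers and 856.0, 1368, 1467, 1709 and 1573 CPM in EF_PF livers. Only LPS_EF_PF 4 and EF_PF 1 crossed (log2 -1.25 ± 0.45, adjusted p = 0.028), and the call was lost without EF_PF 5, LPS_EF_PF 1, LPS_EF_PF 3 or LPS_EF_PF 6, with adjusted p up to 0.0799. Tat in LPS_EF_RD livers was at 860.9, 609, 252.8, 2244 and 560.5 CPM, against 1488, 748.8, 1582 and 703.4 CPM in EF_RD livers. LPS_EF_RD 6 had the highest Tat level of all 38 libraries, and the difference was not called (log2 -0.32 ± 0.43, adjusted p = 0.626). Without LPS_EF_RD 6 the difference in Tat was larger and still not called (log2 -0.98, adjusted p = 0.0585). Sds in the same LPS_EF_RD livers was at 176.8, 30.0, 5.53, 363 and 21.3 CPM, against 20.7, 163.9, 119.6 and 126.5 CPM in EF_RD livers. The log2 difference of Sds was 0.15 ± 0.93, and without LPS_EF_RD 6 it was -0.88 (adjusted p = 0.515). Sds in the PF arm was at 1.37, 11.9, 73.9 and 36.1 CPM in LPS_EF_PF livers, against 85.2, 76.3, 88.1, 100.6 and 54.2 CPM in EF_PF livers. Only LPS_EF_PF 4 reached into the EF_PF range, and the difference was not called (log2 -1.39 ± 0.97, adjusted p = 0.267). Tdo2 did not overlap in the PF arm, with 460 to 854 CPM in LPS_EF_PF livers and 897.0 to 1278 CPM in EF_PF livers, and it was not called either (log2 -0.52 ± 0.27, adjusted p = 0.125).

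The mean of the 4 LPS differences used all 38 libraries and was more precise. On it 7 of the 9 enzymes fell and none rose, where 61.4% of all genes were called and 31.8% were called lower. Hgd differed by log2 -0.77 ± 0.09 (adjusted p = 1.92e-08), Hpd by -0.52 ± 0.08 (adjusted p = 1.61e-06) and Hal by -0.62 ± 0.10 (adjusted p = 2.26e-06). Tat differed by -0.80 ± 0.21 (adjusted p = 0.00157) and Sds by -1.42 ± 0.46 (adjusted p = 0.00862). Sdsl and Gldc differed by -0.31 ± 0.10 and -0.31 ± 0.12 (adjusted p = 0.00776 and 0.0273), and both calls were lost when libraries were scaled by total counts (adjusted p = 0.0679 for Sdsl and 0.182 for Gldc). Gldc was also not called without EF_PF 1 or without EF_RD 3 (adjusted p up to 0.0591). Of the single arms, Sds and Sdsl were called only in that without extract, and Gldc in none. Sdsl differed by log2 0.004, -0.30 and -0.15 in the EF, PF and RD arms (adjusted p = 0.991, 0.264 and 0.645). In the EF arm Sds differed by log2 -0.80 (adjusted p = 0.531). Aass (-0.10 ± 0.14) and Tdo2 (-0.07 ± 0.13) were not called (adjusted p = 0.561 and 0.645). LPS or no LPS accounted for 65.4% of the variance of log2 CPM of Hgd over the 38 libraries, for 45.6% in Hal and 41.6% in Hpd, and for 0.2% in Aass and 0.4% in Tdo2.

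**Figure D2:**
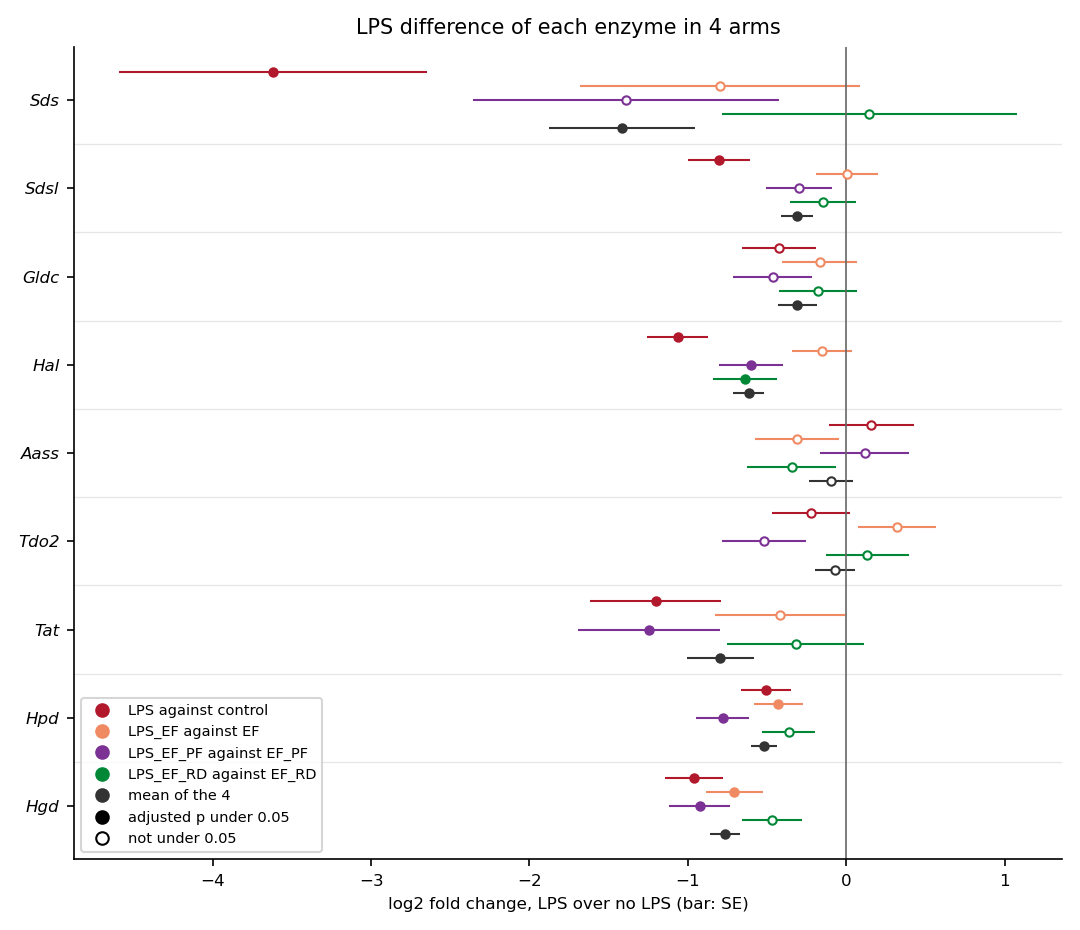
Log2 fold change of each enzyme, LPS over no LPS, in the 4 arms and as their mean (dark grey), with bars of 1 SE and filled points for an adjusted p under 0.05. Hgd lies between -0.96 and -0.47 in the 4 arms, whereas Aass, Tdo2, Sds (0.15 in the RD arm) and Sdsl (0.004 in the EF arm) lie on both sides of 0.

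The difference between LPS differences was tested as an interaction. None of the 9 enzymes was called for EF, for EF with PF or for EF with RD, where 0.108%, 0.0812% and 0.128% of all genes were called by edgeR. At an unadjusted p under 0.05 there were 3 for EF (Sds, Sdsl and Hal), 0 for EF with PF and 2 for EF with RD (Sds and Sdsl). The share of all genes at an unadjusted p under 0.05 was not counted, so these numbers have no background beside them. The fall of Hal after LPS was smaller by log2 0.91 ± 0.27 under EF (adjusted p = 0.386), and that of Sds was smaller by 2.82 ± 1.27 under EF (adjusted p = 0.66) and by 3.77 ± 1.34 under EF with RD (adjusted p = 0.461). Without LPS_EF_RD 6 that value for Sds under EF with RD was 2.75 (adjusted p = 0.706). Since the control libraries enter both the LPS difference and the extract differences below, these values are not independent of each other.

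Without LPS, no enzyme was called in EF, EF_PF or EF_RD livers against control livers, where 0.92%, 0.622% and 1.52% of all genes were called. At an unadjusted p under 0.05 there were 6, 3 and 2 of the 9. The share of all genes at that unadjusted threshold was not counted, and the percentages above do not serve as its background. The largest differences were again those of Sds, which measured 47.1, 171, 57.9, 138.9 and 47.0 CPM in EF livers, against 163.9, 741, 252.5, 661 and 302 CPM in control livers. EF 2 alone reached into the control range, and the level averaged 4.59-fold lower without passing the test (log2 -2.20 ± 0.91, adjusted p = 0.311). Sds in EF_PF livers (54.2 to 100.6 CPM) and in EF_RD livers (20.7 to 163.9 CPM) did not overlap the control livers, although EF_RD 2 and control 3 were equal to the digits given. The log2 differences were -2.39 ± 0.92 and -1.98 ± 0.98 (adjusted p = 0.235 and 0.312). Sdsl measured 8.0, 8.62, 10.8, 12.9 and 13.6 CPM in EF livers, against 14.7 to 20.1 CPM in control livers. Its groups did not overlap (log2 -0.73 ± 0.19, adjusted p = 0.0599), and it was called by DESeq2 (adjusted p = 0.0171) and when libraries were scaled by total counts (adjusted p = 0.0377). It was also called without control 5 (adjusted p = 0.049) or without EF 4 (adjusted p = 0.0382). Absence of overlap held for 1.8% of all genes in EF, 3.6% in EF_PF and 5.82% in EF_RD livers, and for 1, 3 and 1 of the 9 enzymes.

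Gldc in EF livers averaged 33.4 ± 5.75 CPM, against 53.2 ± 11.1 CPM in control livers (SD, n = 5 each), a log2 difference of -0.67 ± 0.24 (adjusted p = 0.198). Hal averaged 199.6 ± 49.96 CPM in EF livers and 299.5 ± 33.7 CPM in control livers (log2 -0.59 ± 0.19, adjusted p = 0.148). Aass went the other way, with 410, 200.0, 347, 197 and 767 CPM in EF livers, against 118.5 to 307 CPM in control livers. EF 5 had the highest Aass level of all libraries, and the difference was not called (log2 0.81 ± 0.27, adjusted p = 0.163). In EF_RD livers Aass differed from control livers by log2 0.557 ± 0.281 and in EF_PF livers by -0.025 ± 0.266 (adjusted p = 0.322 and 0.982). Tdo2, Tat and Hgd differed from control livers by log2 -0.02, -0.76 and 0.02 in EF livers (adjusted p = 0.989, 0.505 and 0.988).

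Hpd was the only enzyme called higher with the extracts, and only on the mean of 6 differences given below. It measured 1729, 2165, 2249, 2147 and 2782 CPM in EF livers, 2243, 2030, 2405, 2879 and 2032 CPM in EF_PF livers and 1630, 2110, 2384 and 2424 CPM in EF_RD livers, against 1906, 1377, 1763, 1416 and 1702 CPM in control livers. All EF_PF livers lay above all control livers, and in EF and EF_RD livers the libraries with acute-phase transcripts, EF 1 and EF_RD 1, fell inside the control range. The 3 log2 differences were 0.44 ± 0.16, 0.51 ± 0.16 and 0.39 ± 0.17, with adjusted p of 0.21, 0.126 and 0.231. After LPS, Hpd averaged 1646 ± 304 CPM in LPS_EF livers (n = 5), 1349 ± 172 CPM in LPS_EF_PF livers (n = 4) and 1661 ± 420 CPM in LPS_EF_RD livers (n = 5), against 1149 ± 152 CPM in LPS livers (SD, n = 5). The log2 differences were 0.52 ± 0.16, 0.23 ± 0.17 and 0.53 ± 0.16 (adjusted p = 0.204, 0.897 and 0.353). On the mean of the 6 differences of a group with EF from the group without extract in the same LPS state, Hpd rose 1.35-fold (log2 0.44 ± 0.09, adjusted p = 0.00661). It was the only enzyme called there, where 3.06% of all genes were called and 1.45% were called higher. The 3 groups within each LPS state share their control or LPS libraries.

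**Figure D3:**
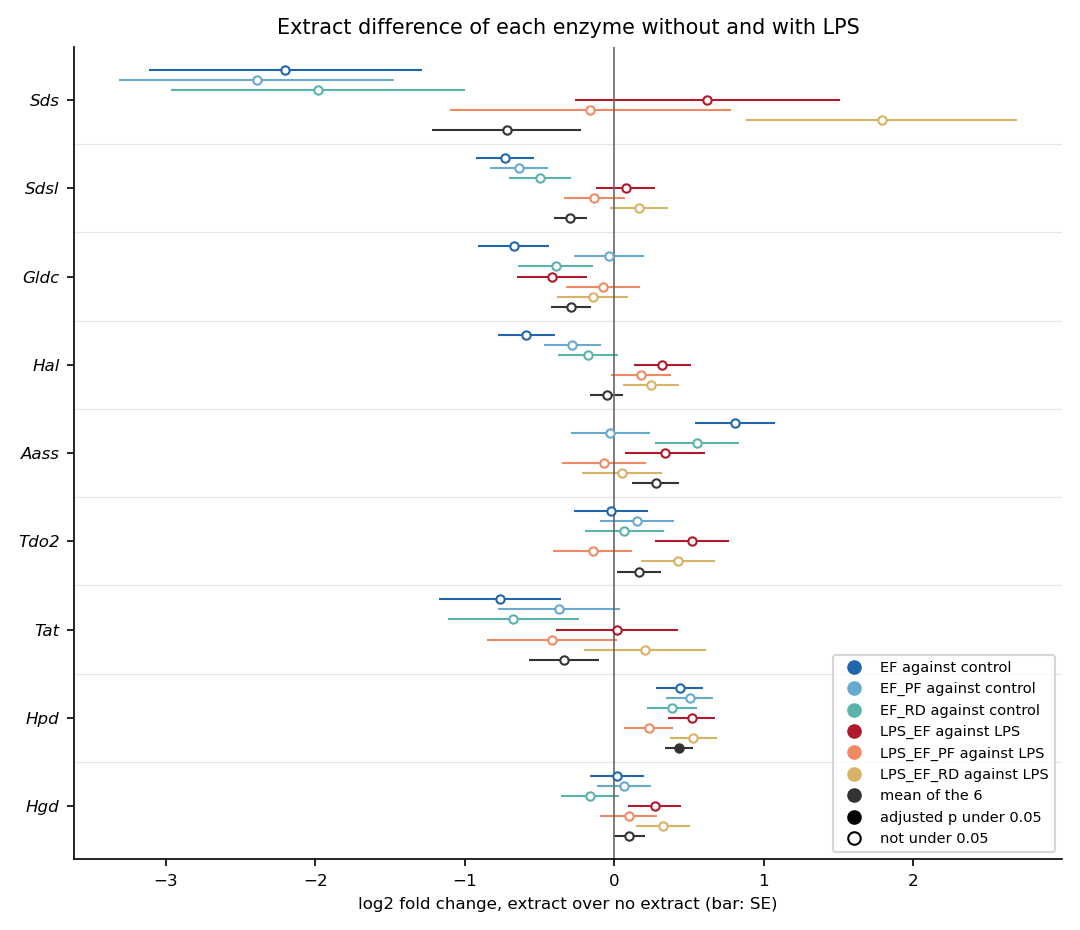
Log2 fold change of each enzyme, extract over no extract, in 3 comparisons without LPS (blue shades), 3 with LPS (red to yellow) and as the mean of the 6 (dark grey), with bars of 1 SE and filled points for an adjusted p under 0.05. Only the mean for Hpd, at 0.44, is filled.

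After LPS, none of the 9 enzymes was called in LPS_EF, LPS_EF_PF or LPS_EF_RD livers against LPS livers, where edgeR called 0.108%, 0.0406% and 0.0135% of all genes. At an unadjusted p under 0.05, where the share of all genes was not counted, there were 2 (Tdo2 and Hpd), 0 and 1 (Hpd). Tdo2 measured 1440, 1243, 641, 1055 and 1363 CPM in LPS_EF livers, against 642 to 941 CPM in LPS livers. All LPS_EF livers but LPS_EF 5 lay above the LPS range (log2 0.52 ± 0.25, adjusted p = 0.481). Sds after LPS with EF and RD differed from LPS livers by log2 1.79 ± 0.91 (adjusted p = 0.669), with a range of 5.53 to 363 CPM, and without LPS_EF_RD 6, the highest of them, by 0.77 (adjusted p = 0.98). Adding PF or RD to EF changed no enzyme by this test: 0.162% of all genes were called in EF_PF against EF livers, 0.724% in EF_RD against EF livers, 0.00676% in LPS_EF_PF against LPS_EF livers and 0.0% in LPS_EF_RD against LPS_EF livers. At an unadjusted p under 0.05, where the share of all genes was again not counted, these comparisons held 2, 1, 1 and 0 of the 9. The lowest adjusted p among them was that of Aass in EF_PF against EF livers, with 215.6 ± 25.3 CPM in EF_PF livers and 384 ± 233 CPM in EF livers (SD, n = 5 each; log2 -0.83 ± 0.27, adjusted p = 0.174).

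The enzymes differed greatly in how much livers of the same group varied. For Sds, the residual SD around the group means was 1.65 on the log2 scale. Over all 38 libraries, differences between the groups included, its highest library was 542-fold above its lowest. For the other 8 the residual SDs ran from 0.25 (Hpd) to 0.68 (Tat). Over all 38 libraries their highest library was 2.83-fold (Sdsl) to 8.88-fold (Tat) above the lowest. Sds counts were still substantial where it was lowest, with 34 read pairs in LPS_EF_PF 1 and 88 in LPS 3.

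Across the 38 libraries the levels of Hpd and Hgd ran together with r = 0.79, those of Hal and Hgd with r = 0.78 and those of the neighbours Sds and Sdsl with r = 0.76 (Pearson, log2 CPM). For deviations from the group means, which take out only the mean of each labelled group, the values were 0.64, 0.60 and 0.62. The 4 libraries that stood apart by A2m and Lbp keep their distance from their groups in these deviations. Hal, for example, was at 270.8 CPM in LPS_EF_RD 6 and at 144.5 CPM in EF_RD 1. A response unlike the label can therefore enter these values. Tat and Hgd, of the same route, gave 0.52 over all libraries and 0.16 for the deviations. Aass had no r above 0.20 with any other enzyme over all libraries, and its lowest was -0.42 with Gldc. These are descriptions over libraries that share groups, and they carry no test.

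**Figure D4:**
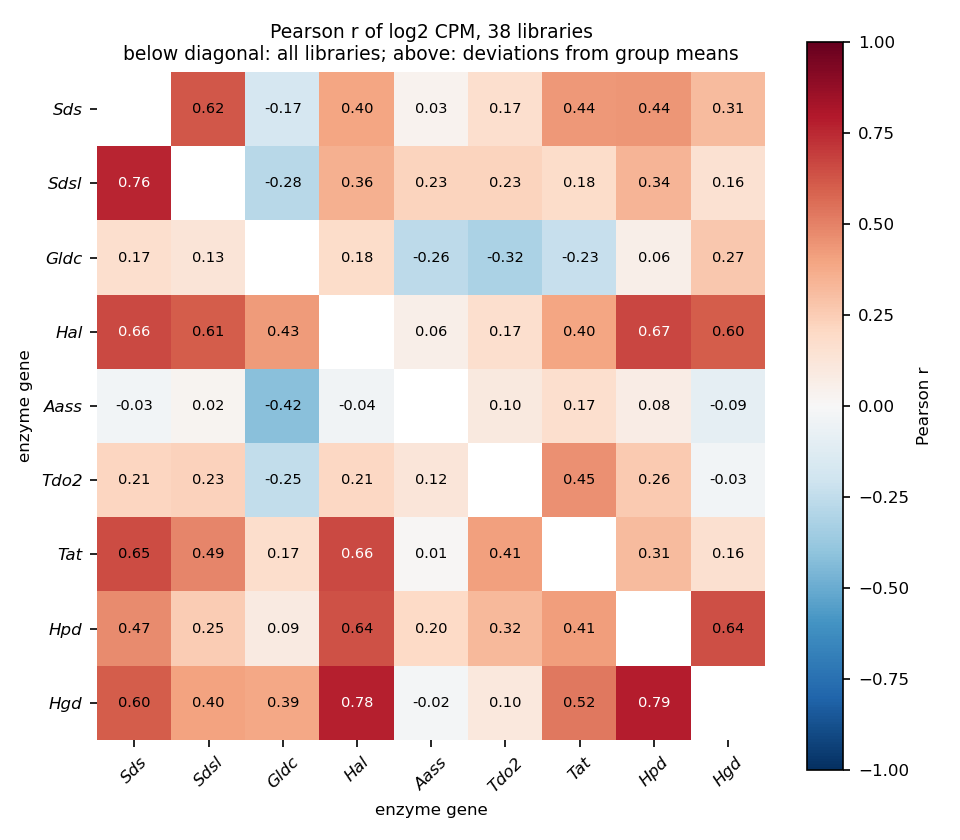
Pearson correlation of log2 CPM between the 9 enzymes over 38 libraries, below the diagonal for all libraries and above it for deviations from group means. The highest value, 0.79, is that of Hpd with Hgd.

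For each enzyme the tested genes with the most similar pattern over the 38 libraries were also listed, as a description. Those nearest to Sds were Slc25a15, the mitochondrial ornithine carrier of the urea cycle (r = 0.87), Sfxn1, a mitochondrial serine carrier (0.84), and Got1, the cytosolic aspartate aminotransferase (0.83). Nearest to Hal was Amdhd1, its neighbour on the chromosome (0.92), and nearest to Tat were Noct (0.83), Pck1, the gluconeogenic enzyme (0.83), and Pptc7 (0.82). Hpd was nearest to Hsd17b11 (0.93), Glyatl2 (0.90) and Sult1a1 (0.90), and Hgd to Adtrp (0.93), Pgrmc1 (0.93) and Slc17a3 (0.92). Tdo2 was nearest to Fbxo31 (0.75), H6pd (0.74) and Fkbp5, a glucocorticoid target (0.74). The nearest values were lower for Sdsl (Hyi, 0.75), Gldc (Steap3, 0.74) and Aass (Prkar2a, 0.66).

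The fall after LPS extended to other genes of amino acid breakdown. Of 77 such genes in the table outside the 9, 75 were tested. In LPS livers against control livers 59 fell and 3 rose, with a median log2 difference of -0.62. In this comparison 36.8% of all genes were called and 18.1% were called lower. All 5 of the other phenylalanine and tyrosine genes fell, among them Fah, the last enzyme of the tyrosine route, with 252.7 ± 23.6 CPM in LPS livers and 437.3 ± 38 CPM in control livers (SD, n = 5 each; log2 -0.79, adjusted p = 0.000111). All 3 histidine genes fell, with Uroc1 (log2 -1.21) and Amdhd1 (log2 -1.13) downstream of Hal (adjusted p = 0.000158 and 0.000142). All 4 lysine genes fell although Aass did not pass the test, led by Dhtkd1 (log2 -1.20) and Aadat (log2 -0.71; adjusted p = 8.14e-06 and 0.000211).

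Of 9 further tryptophan genes 4 fell and 2 rose. Kynu and Kmo, which act on kynurenine after Tdo2, fell by 1.26 and 1.17 on the log2 scale (adjusted p = 0.00595 and 6.64e-05), and Ido2 and Kyat1 rose (log2 0.92 and 0.56, adjusted p = 0.00261 and 0.015). Of 13 glycine, serine and threonine genes 9 fell, with Agxt2 and Pipox the largest (log2 -1.10 and -0.74, adjusted p = 0.00428 and 0.00143). All 10 methionine and cysteine genes fell. Bhmt, which remethylates homocysteine, was at 758 ± 358 CPM in LPS livers and 2846 ± 462 CPM in control livers (log2 -1.91, adjusted p = 4.89e-05), and Cth, which makes cysteine, differed by log2 -1.33 (adjusted p = 0.00557). Of 10 proline, ornithine and glutamate genes 8 fell, including the aminotransferases Got1 and Gpt (log2 -1.64 and -1.53, adjusted p = 0.00362 and 0.000787). Of 21 branched chain genes 16 fell and 1 rose. Bcat1, the cytosolic branched chain aminotransferase, which is scarce in healthy liver, was at 3.20 ± 1.38 CPM in LPS livers and 0.284 ± 0.336 CPM in control livers (log2 3.501, adjusted p = 0.000592), and Mccc2 of leucine breakdown fell (log2 -0.77, adjusted p = 9.58e-05).

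**Figure D5:**
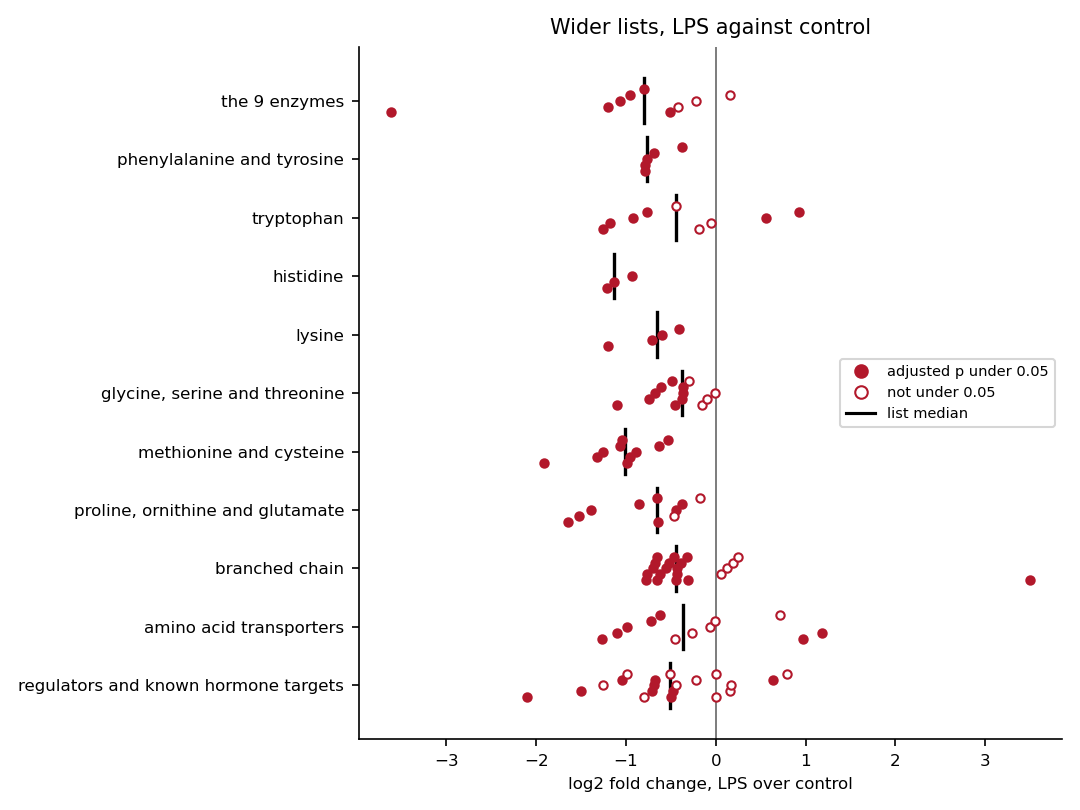
Log2 fold change, LPS over control, of each gene in the wider lists, with filled points for an adjusted p under 0.05 and a black line at the list median. The 10 methionine and cysteine genes are all filled and below 0, and the isolated point at 3.501 is Bcat1.

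In the other arms the wider list moved likewise. Of its 75 tested genes, 40 fell and 3 rose in LPS_EF against EF livers, 60 fell and 2 rose in LPS_EF_PF against EF_PF livers, and 35 fell and 4 rose in LPS_EF_RD against EF_RD livers. The shares of all genes called were 29.1%, 36.5% and 23.5% in these arms, and 14.5%, 17.3% and 10.7% were called lower. Bcat1 rose in all 3 (log2 2.09, 4.29 and 2.80, adjusted p = 0.0245, 0.000144 and 0.00971), and Gpt fell in all 3 (log2 -1.47, -2.34 and -1.58, adjusted p = 0.00167, 2.4e-05 and 0.00206). Oat fell in the EF arm (log2 -0.97, adjusted p = 0.00242), and Bhmt in the PF and RD arms (log2 -2.16 and -1.60, adjusted p = 2.83e-05 and 0.00112). None of the 75 was called in EF, EF_PF or EF_RD livers against control livers by edgeR. There 0.92%, 0.622% and 1.52% of all genes were called. On the mean of the 6 extract differences Oat, which converts ornithine, rose (log2 0.60 ± 0.14, adjusted p = 0.0148). Of 12 amino acid transporters, 5 fell and 2 rose after LPS without extract, where 36.8% of all genes were called and 18.1% were called lower. Slc38a2, which imports neutral amino acids, was at log2 -1.27 (adjusted p = 0.00145) and the glutamate carrier Slc1a2 at log2 1.18 (adjusted p = 0.00367).

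Of 20 regulators and known hormone targets, 8 fell and 1 rose in LPS livers against control livers. The share of all genes called there was 36.8%, with 18.1% called lower. Among the regulators and targets that fell were the transcription factors Hnf4a (log2 -0.69), Cebpa (-0.68), Cebpb (-0.71) and Crem (-1.50), the glucocorticoid receptor Nr3c1 (-0.47), and the gluconeogenic genes G6pc (-2.10) and Pck1 (-1.05). Sgk1 rose (log2 0.64, adjusted p = 0.0169). Fkbp5, a glucocorticoid target, averaged 27.0 CPM in LPS livers and 26.9 CPM in control livers (adjusted p = 0.998), and Tsc22d3 and Per1 were not called (log2 -0.80 and -0.99, adjusted p = 0.0838 and 0.0781). In EF livers against control livers, where 0.92% of all genes were called, only Crem of this list was called (log2 -0.88 ± 0.17, adjusted p = 0.00551). Pck1 and G6pc differed there by log2 -0.57 and -0.88 (adjusted p = 0.444 and 0.597).

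Markers of liver zones and of other cells also differed between groups, in both directions. The shares of all genes called were 36.8% after LPS without extract, with 18.1% called lower, and 0.92% in EF against control livers. Sds, Hal and other amino acid enzymes are typical of periportal hepatocytes. Of 6 periportal markers, which include Pck1 and Gls2 from the lists above, 5 fell after LPS, and their sum ran from 4828 to 8038 CPM in LPS livers and from 11680 to 13610 CPM in control livers. Of 8 pericentral markers, which include Oat and Slc1a2, 2 fell and 2 rose after LPS, and their sum ran from 2652 to 3625 CPM in LPS livers and from 3595 to 4911 CPM in control livers. In EF livers against control livers 4 of 8 pericentral markers rose, with sums of 6298 to 8160 CPM in EF livers, and none of the 6 periportal markers was called. Neutrophil and monocyte markers rose after LPS (6 of 6 tested), with sums of 206.8 to 417.8 CPM in LPS livers and 24.4 to 94.9 CPM in control livers. Macrophage markers rose (4 of 7), with 411 to 635 CPM in LPS livers and 219 to 447 CPM in control livers, as did lymphocyte markers (5 of 6), with 33.0 to 43.4 CPM in LPS livers and 9.22 to 20.0 CPM in control livers. The part of these shifts in the differences of the 9 enzymes was not tested.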

How the data were processed

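Gene counts were made by the authors with featureCounts 2.0.6, per the file headers, whose annotation is of rn6, and hold whole read pairs per gene. TPM values were deposited by the authors in a second table, and over 31011 shared gene names they matched counts divided by gene length to within 0.0495%. Per the submitters' processing notes, STAR and RSEM were used and mRatBN7.2 is listed as a build. Positions here follow the rn6 annotation of the count table. Each library is 1 liver. No 2 library columns were identical.

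Counts of the 38 libraries were fitted with edgeR 4.0.16 (quasi-likelihood test, TMM scaling, 1 mean per group, filterByExpr with a minimum count of 10), in R 4.3.3. Every adjusted p in the text is from this fit, or from the named alternative, with Benjamini-Hochberg adjustment over all genes tested in that comparison. Calls were made below 0.05. The fit was tested on simulated data. A fold change is the first group over the second. Sequence windows came from RefSeq (GRCr8). The members and gene lists were chosen with earlier results of these data known. Named genes outside the 9 were the 2 called genes of each list with the largest change after LPS, the 3 such genes over all lists in other comparisons, and the regulators; Ido2 and Kyat1 were named after their values were seen. Some genes that this rule names are not reported here. Alternatives were RLE and total-count scaling, DESeq2 1.42.0, other filters, only the groups compared, a replicate block, limma 3.58.1 on log2 TPM, and leaving libraries out. In no comparison with 3 or more same-numbered pairs did every pair deviate together (all correlations over 0.1), so replicate numbers were not used as pairs. EF_RD against control livers had 2 such pairs, both over 0.1 (0.187 and 0.216).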

Additional observations from a re-analysis of the deposited data

Results flagged for a closer look

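In 3 of 72 combinations of enzyme and group with 4 or 5 libraries, 1 library stood far from the rest by Dixon's gap test, where chance gives about 1 in 20. Sdsl in LPS_EF 5 was lowest of its group at 7.195 CPM, against 11 to 12.4 CPM in the other LPS_EF livers. Hal in EF_PF 3 was highest at 283.8 CPM, against 232.1 to 243.0 CPM in the other EF_PF livers. Hgd in LPS_EF_RD 2 was lowest at 120.7 CPM, against 218.0 to 257.4 CPM in the other LPS_EF_RD livers. The causes were not tested.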

How the results depend on the processing

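The count of enzymes called after LPS without extract, 6, was 5 to 6 when single libraries were left out and 4 to 7 under the other 14 alternatives, the lowest with the replicate block. For LPS_EF against EF livers the count of 2 became 1 under total counts, without a low-count filter, with only the groups compared and in the 3 limma fits on TPM, and 1 to 2 when single libraries were left out. For LPS_EF_PF against EF_PF livers the count of 4 became 2 under total counts and in limma on log2(TPM + 1) without a filter, and 2 to 4 when single libraries were left out. For LPS_EF_RD against EF_RD livers the count of 1 became 0 with only the groups compared, 2 without LPS_EF 7 and LPS_EF_RD 6, 3 without EF 1 and EF_RD 1, 3 without LPS 3 and EF_RD 1, and 3 without LPS_EF 7, LPS_EF_RD 6, EF 1 and EF_RD 1, a choice made after seeing the data. It ran from 0 to 3 when single libraries were left out. For EF against control livers the count of 0 became 1 (Sdsl) under total counts, DESeq2, limma on log2(TPM + 1) and log2(TPM + 0.1), and without LPS 3 and EF_RD 1, and 0 to 1 when single libraries were left out. For EF_PF against control livers it became 2 (Sds and Sdsl) with only the groups compared and 1 (Hpd) with the replicate block. The causes were not tested. No called value reversed its sign, and the remaining counts stayed within 1.5 times. Sds in LPS_EF_RD against EF_RD livers, not called, was at log2 0.15 by edgeR and -0.78 in limma on log2(TPM + 1).

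Replicate numbers were not used to pair the samples: in LPS against control livers the correlations of same-numbered deviations ran from -0.256 to 0.041. With the replicate block Hpd and Tat after LPS missed the threshold (adjusted p = 0.0625 and 0.0663), and 3565 genes were called in place of 5435. Under total counts 72.0% of the called genes were higher after LPS. With only the groups compared, 1692 genes in place of 3470 were called in LPS_EF_RD against EF_RD livers.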
